A study of Homo sapiens with 62 samples.

Results

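The share of newly made RNA was measured gene by gene in solvent-treated cells of 2 pancreatic ductal adenocarcinoma lines, AsPC-1 and T3M-4, by SLAM-seq. The 9 libraries were the ones labelled DMSO for 4 h, 5 of AsPC-1 and 4 of T3M-4, out of 62 in the series. For each gene the share was the number of reads with a T-to-C conversion divided by all reads of that gene, in percent. Genes entered where they had a mean of at least 500 reads over the libraries of a line, which left 8688 of the 29794 listed genes in AsPC-1 and 9768 in T3M-4, and 8106 in both. Genes were ranked in each line by the relative share, which is the share divided by the median share of that library, so that a value of 1 is the median gene. AsPC-1 is an established line used as a model of the classical subtype of this cancer and T3M-4 one of the basal-like subtype. In all libraries the endogenous KLF5 gene had been disrupted by Cas9 and a guide and replaced by a lentiviral KLF5 cDNA carrying a FLAG tag and the FKBP12-F36V degron. The selected cells are populations rather than single clones, and the degron was not engaged in solvent. DMSO stood for 4 h, and 4-thiouridine (4sU) was present for 2 h of that time. The libraries came from 2 experiments per line, AsPC-1 replicates 1.1 to 1.3 and 2.1 to 2.2, and T3M-4 replicates 1.1 to 1.2 and 2.1 to 2.2. All AsPC-1 libraries and T3M-4 experiment 1 were labelled batch 1, and T3M-4 experiment 2 batch 2. Libraries of 3 kinds served for comparison: the CDK9 inhibitor NVP-2 (8 libraries), the inactive degrader control dTAGv-1-NEG (14 libraries, called NEG here), both for 4 h and in both lines, and DMSO for 12 h in AsPC-1 (4 libraries).

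The level of an mRNA is set by its synthesis and its decay, and at a constant level the share that is replaced in a given time follows the decay rate, with a small part added by growth. Cells take up 4sU and build it into RNA in place of uridine, and alkylation of its thiol group makes the reverse transcriptase pair it with G, so that a labelled read carries C where the genome has T. An mRNA that turns over within the labelling time has mostly labelled reads and a long-lived one has few. Messages for transcription factors, cytokines and feedback regulators are known to be short-lived in many cells, and those for ribosomal proteins, metabolic enzymes and secreted proteins to be long-lived. AU-rich elements, copies of AUUUA within U-rich stretches of the 3'UTR, recruit proteins such as ZFP36 (tristetraprolin) that bring in the deadenylase complex and speed decay. CDK9 is the kinase that releases paused RNA polymerase II into elongation, so its inhibitor stops most new nuclear mRNA. The libraries hold 3' ends of mRNAs, so the reads report the 3'UTR, and a T-rich 3'UTR offers more positions to be converted.

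The labels of the lines were checked against markers first. A marker passed where its mean over the libraries of a line was at least 10 CPM (reads per gene scaled to the total of the library). All 5 epithelial markers passed in both lines, though CDH1 was as low as 6.21 CPM in a single AsPC-1 library. Of the 5 basal-like markers 5 passed that level in T3M-4, with a summed level of 2800 to 4302 CPM, against 1 in AsPC-1, with 15.4 to 57.1 CPM. Of the 7 classical markers 3 passed in each line, and their summed level overlapped, at 93.0 to 369 CPM in AsPC-1 and 73.5 to 108 CPM in T3M-4, so this list did not tell the lines apart. HNF4A, a classical lineage factor, stood at 12.4 to 22.2 CPM in AsPC-1 and 0.126 to 0.474 CPM in T3M-4, whereas FOXA2, of the same list, stood at 0.0151 to 0.145 CPM and 21.1 to 32.5 CPM, and the libraries of the lines overlapped for ELF3 and MUC1. No fibroblast, endothelial or leukocyte marker reached a mean of 10 CPM in either line. In single AsPC-1 libraries the fibroblast marker LUM reached up to 15.2 CPM and the leukocyte marker CD68 up to 14.1 CPM. The libraries held between 82676553 and 132863981 reads in AsPC-1 and between 127420559 and 203859002 in T3M-4, and no library was a copy of another. In AsPC-1 between 10.8 and 19.2% of all reads came from MALAT1, a nuclear long noncoding RNA, against 3.24 to 10.8% in T3M-4.

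The median gene had a T>C share of 15.2, 15.6, 14.9, 12.6 and 13% in AsPC-1 replicates 1.1, 1.2, 1.3, 2.1 and 2.2, and of 19.1, 18.4, 13.9 and 13.8% in T3M-4 replicates 1.1, 1.2, 2.1 and 2.2. Experiment 1 was higher than experiment 2 in both lines, and the libraries of the lines overlapped. The mean was 14.3% ± 1.36 (SD, n = 5) in AsPC-1 and 16.3% ± 2.82 (SD, n = 4) in T3M-4, a difference of 2.04 percentage points that did not pass a two-sided exact permutation test (p = 0.238, adjusted p = 0.357 over 3 library-level comparisons). The share over all reads of a library was 10.1% ± 0.624 (SD, n = 5) in AsPC-1 and 12.4% ± 1.56 (SD, n = 4) in T3M-4, and here each T3M-4 library was above each AsPC-1 library (difference 2.34 points, exact permutation p = 0.0159, the smallest that 5 against 4 libraries can give, adjusted p = 0.0476). MALAT1 moved with this value, since its own share was 5.80% in AsPC-1 and 14.7% in T3M-4 while it held more of the AsPC-1 reads, and its part in the difference was not tested. The width of the distribution, taken as the 90th percentile of the shares over the 10th, was 7.15 ± 0.254 (SD, n = 5) in AsPC-1 and 7.27 ± 1.02 (SD, n = 4) in T3M-4 (difference 0.119, exact permutation p = 0.778, adjusted p = 0.778). After NVP-2 the median share of a library was 1.18 to 1.92% in AsPC-1 and 1.18 to 2.84% in T3M-4. Libraries without 4sU were not analysed here, so the NVP-2 libraries are the nearest measure of the T>C reads that remain when little nuclear mRNA is made.

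**Figure D1:**
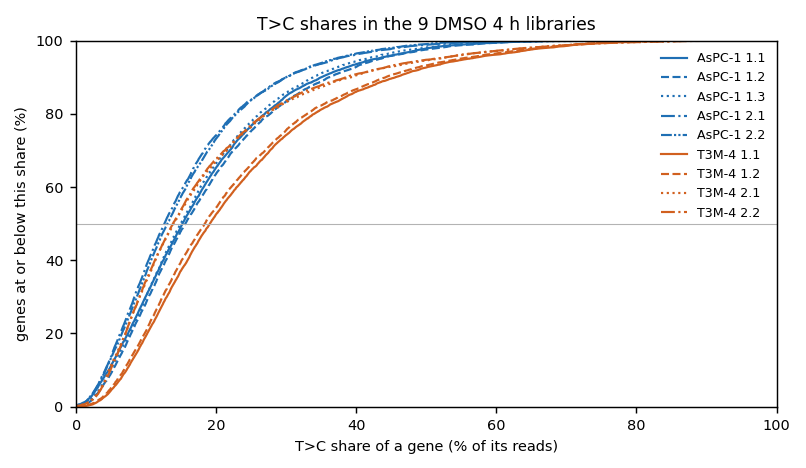
Cumulative distribution of the T>C share over genes in each of the 9 DMSO 4 h libraries, with the share of a gene on the x axis (percent of its reads), the percent of genes at or below it on the y axis and 1 curve for each library. The curves cross the grey line, the median gene, between 12.6 and 19.1%, and the T3M-4 curves reach farther to the right at the upper end than those of AsPC-1.

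Gene order was steady among the libraries of a line. Spearman's correlation of the relative shares across genes was 0.893 to 0.940 between AsPC-1 libraries and 0.903 to 0.956 between T3M-4 libraries, as a description over genes that share depth and base composition. The median gene had a coefficient of variation of 14.7% over the 5 AsPC-1 libraries and 14.9% over the 4 T3M-4 libraries. The median share of the highest decile of genes was 39.6% in AsPC-1 and 52.7% in T3M-4, and that of the lowest decile 3.4 and 4.67%, so the relative share differed between these deciles by 11.7-fold and 11.5-fold. At the top the scale is bounded. The share that 0.1% of the genes exceeded was 62.9 to 69.1% in AsPC-1 libraries and 82.9 to 86.4% in T3M-4 libraries, and the fastest genes lie near it. Just inside the read minimum DUS3L and SRRD, at 500 reads in AsPC-1, had shares of 18.1 and 15.0%, and just outside it CDC7 and MARCHF8, at 499.8 and 499.6 reads, had 29.8 and 13.4%.

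Genes at the read minimum in both lines were ordered by the lower of their mean relative shares in AsPC-1 and T3M-4. Genes that keep their share after NVP-2 (below) were left out. The first 12 were FBXO5, MYC, ZFP36, ZCCHC3, CLK1, OSR2, YOD1, ARRDC3, TGIF1, PARD6B, SPRY4 and JUNB. Their mean shares were 61.1 to 71.9% in AsPC-1 and 76.0 to 89.3% in T3M-4. FBXO5 encodes EMI1, an inhibitor of the anaphase-promoting complex. Its share was 62.5, 78.9, 75.1, 69.5 and 73.7% in the AsPC-1 libraries and 92.2, 88.9, 85.8 and 90.5% in the T3M-4 libraries, and it ranked first in both lines. MYC, the growth-promoting transcription factor, had 69.8, 71.2, 73.1, 68.4 and 69.2% in AsPC-1 and 85.8, 85.6, 91.4 and 90.1% in T3M-4. Each library of T3M-4 was above each of AsPC-1 in percent for both genes. After division by the library median, MYC stood at 4.96 ± 0.4 times the median gene in AsPC-1 and 5.56 ± 1.13 times in T3M-4 (SD, n = 5 and 4), and the difference did not pass the test (log2 fold 0.16, SE 0.128, edgeR adjusted p = 0.394). None of these 12 genes was called different between the lines, with edgeR adjusted p of 0.155 to 0.853.

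ZFP36, itself a factor that destabilises mRNAs with AU-rich elements, had 66.9, 64.3, 72.7, 68.4 and 62.8% in AsPC-1 and 87.5, 79.0, 88.3 and 91.8% in T3M-4. CLK1, a kinase of SR splicing factors, had 60.2 to 72.5% in AsPC-1 and 81.3 to 91.2% in T3M-4. JUNB, an AP-1 subunit, had 56.3 to 65.4% and 80.2 to 81.6%. SPRY4, a feedback inhibitor of receptor tyrosine kinase signalling, had 58.7 to 66.2% and 71.9 to 80.4%. The remaining members have a range of roles. TGIF1 is a repressor of TGF-beta signalling, ARRDC3 an arrestin-like adaptor of receptor trafficking, YOD1 a deubiquitinase, PARD6B a cell polarity protein, OSR2 a zinc finger transcription factor, and ZCCHC3 a zinc finger protein that binds nucleic acids. EPHA2, an ephrin receptor, and LIF, a cytokine of the interleukin-6 family, were also among the first 8 of AsPC-1, with means of 64.9% ± 3.48 and 63.8% ± 2.31 (SD, n = 5). DUSP1, the phosphatase that ends MAP kinase signals, was at rank 3 in T3M-4 with 86.7% ± 5.63 (SD, n = 4), and both LIF and DUSP1 were under the read minimum in the other line. KLF10, a zinc finger factor induced by TGF-beta, and ID1, an inhibitor of basic helix-loop-helix factors, completed the first 8 of T3M-4 with 85.4% ± 0.884 and 84.7% ± 1.19 (SD, n = 4). KLF10 is not in the list above because its share after NVP-2 was still 37.4% in AsPC-1, more than 0.5 times its DMSO share.

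Of the 12 fast genes, 6 had the AU-rich core TATTTAT in the 3'UTR of the canonical transcript in GENCODE v44, read on the sense strand. The core was in 35.6% of all 3'UTRs in AsPC-1 and 36.0% in T3M-4, and in 55.8 and 54.1% of those in the highest decile. The sequences below show 1 such site in each of 5 of the 6 genes with the core in capitals, because the share of 3'UTRs with this core differed between fast and slow genes in the counts given further on. The coordinates are on hg38. The ZFP36 site lies at chr19:39409221-39409250 on the plus strand, the ZCCHC3 site at chr20:300287-300316 on the plus strand, the YOD1 site at chr1:207043911-207043940 on the minus strand, the PARD6B site at chr20:50752611-50752640 on the plus strand and the SPRY4 site at chr5:142310540-142310569 on the minus strand, each within the annotated 3'UTR exon.
ZFP36: tgattttatagTATTTATatatattgggtc
ZCCHC3: ttctgaataaaTATTTATcttttgtattgc
YOD1: tgcattgatttTATTTATgaggtgtatgac
PARD6B: ttatggagagtTATTTATtaattaacttta
SPRY4: tattttaatagTATTTATtttagaaagtct
The numbers of such cores per 3'UTR were 4 in SPRY4, 3 in ZFP36 and YOD1, 2 in PARD6B and 1 in ZCCHC3 and MYC. FBXO5, CLK1, OSR2, ARRDC3, TGIF1 and JUNB had none of these letters in the 3'UTR searched.

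**Figure D2:**
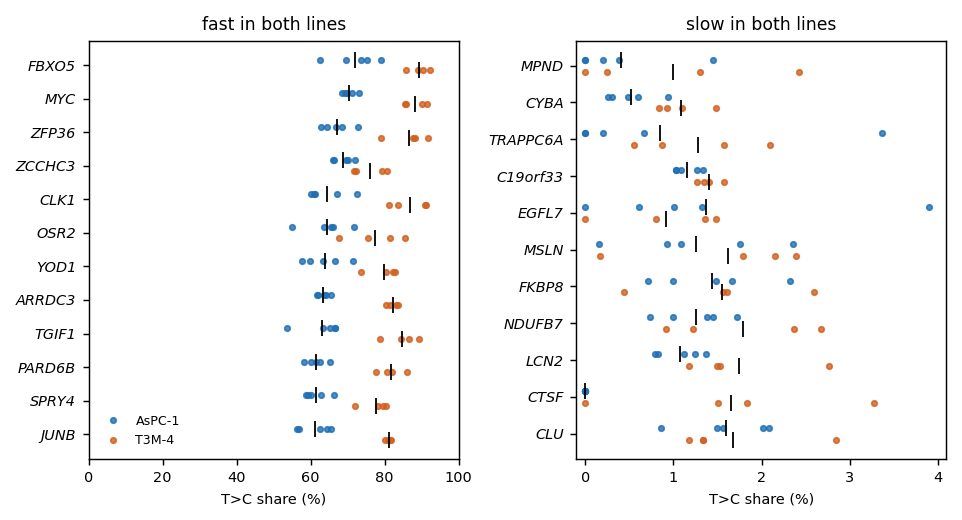
T>C share (x axis, percent, on a different scale in each panel) of the genes named as fast or slow in both lines, with 1 point for each of the 5 AsPC-1 and 4 T3M-4 libraries and a bar at the mean of the line. The fast genes lie between 53.6 and 92.2% in all libraries and the slow genes at or below 3.90%, some of them at 0.

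Among the slowest 12 genes of both lines were MPND, CYBA, TRAPPC6A, C19orf33, EGFL7, MSLN, FKBP8, NDUFB7, LCN2, CTSF and CLU. Several encode secreted or surface proteins: MSLN (mesothelin), LCN2 (lipocalin 2), CLU (clusterin) and EGFL7. CYBA, the p22phox subunit of NADPH oxidase, had 0.939, 0.255, 0.299, 0.602 and 0.485% in AsPC-1 and 1.1, 1.49, 0.837 and 0.926% in T3M-4. Its 3'UTR has 64 bases with 7 T, so few positions could convert. LCN2 had 0.794, 0.830, 1.24, 1.37 and 1.12% in AsPC-1 and 1.49, 1.53, 1.18 and 2.76% in T3M-4, from a 3'UTR of 150 bases with 22 T. Low T number did not mark all of them, since the 3'UTR of CLU has 1324 bases with 389 T and its share was 1.60% ± 0.491 (SD, n = 5) and 1.67% ± 0.786 (SD, n = 4). NDUFB7, a subunit of respiratory complex I, had 1.25% ± 0.390 and 1.79% ± 0.858 with 8 T, and MSLN 1.26% ± 0.837 and 1.62% ± 1.00 with 17 T (SD, n = 5 and 4). CTSF, the lysosomal protease cathepsin F, had 0 of 3326 reads converted in AsPC-1, which allows a share of up to 0.0902% by counting error alone, and 1.5, 0, 1.83 and 3.27% in T3M-4. In T3M-4 GRIN1, a glutamate receptor subunit, had 0 of 2180, which allows up to 0.138%. SERPING1, SAA1, IFITM1 and IFT27 were also among the slowest 8 of T3M-4 at 1.02 to 1.36%, and DPEP1 and PNPLA6 among those of AsPC-1 at 0.282 and 0.496%. At this level a gene with few reads rests on a handful of converted reads, and DPEP1 was at 0 in 4 of 5 libraries and at 1.41% in replicate 1.3. The small RNA genes MIR1248 and SNORA81, also among the slowest 8 of AsPC-1, lie in the same locus with a mean of 563 reads each, so reads cannot be assigned to either.

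Gene groups fell in a clear order, with each median taken over the members at the read minimum in that line, which were not always the same genes in both. The AP-1 and immediate-early factors had a median relative share of 3.34 in AsPC-1 and 4.23 in T3M-4, beside 1.01 and 1.00 over all genes. Of the 15 measured in AsPC-1 13 were in the highest decile, and 12 of 14 in T3M-4. JUNB, KLF10 and IER5 (60.4% ± 6.42 and 81.9% ± 1.59, SD, n = 5 and 4) led the group, and JUND and SRF were its lowest at 1.62 and 1.75 times the median in AsPC-1. The signalling feedback inhibitors stood at 3.37 and 4.67, with 12 of 13 and 16 of 18 in the highest decile. They include SPRY4, SPRY2 and NFKBIA, the inhibitor of NF-kappa-B, which had 54.1% ± 3.3 in AsPC-1 and 79.7% ± 1.41 in T3M-4 (SD, n = 5 and 4). The regulators of mRNA decay stood at 3.25 and 3.78, with 9 of 12 and 10 of 14 in the highest decile, led by ZFP36 in both lines. Next came ZFP36L2 and the endonuclease ZC3H12A in AsPC-1, and in T3M-4 BTG2, which was under the read minimum in AsPC-1, and ZC3H12A. No member of the group was below 1.51 times the median gene.

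Regulators of the cell cycle entry and apoptosis stood at 2.73 and 2.52, with MYC and CDKN1B highest in both lines and CDKN2A and CCND3 below the median gene in both lines. The lineage transcription factors stood at 2.55 and 2.69, and all 9 measured in AsPC-1 and all 16 in T3M-4 were above the median gene. SOX9 had 55.5% ± 4.51 and 68.0% ± 2.76, HES1 48.7% ± 1.36 and 76.9% ± 4.25, and TFAP2A 39.8% ± 2.95 and 51.7% ± 1.58 (SD, n = 5 and 4). KLF5, the factor the series is about and chosen here for that reason, had 43.2% ± 4.18 in AsPC-1 and 46.7% ± 4.15 in T3M-4 (SD, n = 5 and 4), or 3.05 and 2.90 times the median gene, in the highest decile of both lines with no difference called between them (log2 fold -0.07, SE 0.103, edgeR adjusted p = 0.657). Reads were counted on annotated 3'UTR exons. How many of the KLF5 reads came from the disrupted endogenous gene and how many from the cDNA was not tested. Cytokines, chemokines and EGF-type ligands stood at 2.43 and 2.92, but spread widely, from CXCL16 at 0.570 to LIF at 4.51 in AsPC-1. The EGF receptor ligands HBEGF and EREG had 52.3% ± 5.58 and 49.6% ± 4.83 in AsPC-1 and 71.1% ± 5.48 and 60.4% ± 2.11 in T3M-4 (SD, n = 5 and 4). The zinc finger genes of the ZNF series, mostly repressors of the KRAB type, stood at 2.13 and 2.88, and 121 of 135 measured in AsPC-1 and 191 of 204 in T3M-4 were above the median gene. Stress response genes stood at 2.01 and 2.83, led in AsPC-1 by PPP1R15A, which directs dephosphorylation of the initiation factor eIF2 (58.1% ± 6.59 and 64.7% ± 1.06, SD, n = 5 and 4). In T3M-4 CHAC1, an enzyme that degrades glutathione, was higher at 4.41 times the median gene, against 4.06 for PPP1R15A, and was under the read minimum in AsPC-1. The snoRNA host genes stood at 1.24 and 1.76, with SNHG3 far above the others at 53.6% ± 3.82 and 71.1% ± 5.06 (SD, n = 5 and 4).

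The SR proteins with their kinases and the mitotic genes lay nearer the median gene, at 1.43 and 1.33 and at 1.32 and 1.07. Within the first group the kinases CLK1 and CLK4 were the fastest in both lines. CLK4 had 47.4% ± 4.37 and 69.3% ± 5.73, while SRSF1 had 13.2% ± 1.34 and 16.7% ± 1.37 (SD, n = 5 and 4). Integrins and laminin-332 chains stood at 0.80 and 0.69, proteasome subunits at 0.60 and 0.55, and actins, tubulins and their partners at 0.57 and 0.45. The S100 proteins and annexins stood at 0.44 and 0.39, keratins at 0.42 over 6 genes and 0.65 over 13, endoplasmic reticulum chaperones with lysosomal proteins at 0.36 and 0.34, nuclear-encoded respiratory chain subunits at 0.36 and 0.36, and glycolytic enzymes at 0.32 and 0.36. Over the 6 keratins tested in both lines the median log2 fold was -0.02. GAPDH had 2.75% ± 0.435 and 4.27% ± 0.312 and ALDOA 2.33% ± 0.280 and 3.39% ± 0.282, whereas HK2, the inducible hexokinase, had 23.4% ± 2.23 and 21.6% ± 2.15 (SD, n = 5 and 4). The secreted and surface markers of the classical subtype stood at 0.27 and 0.52, with LCN2 and MUC1 lowest and FA2H highest in AsPC-1. Cytosolic ribosomal proteins were the slowest list, at 0.25 and 0.33, with 54 of 74 in the lowest decile in AsPC-1 and 46 of 75 in T3M-4. Most ribosomal protein genes have processed pseudogenes of near-identical sequence, so their reads are uncertain.

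Dividing each gene by the median of genes in the same decile of 3'UTR T content left the order of these groups largely in place. The AP-1 group then stood at 3.27 in AsPC-1 and 4.11 in T3M-4, the feedback inhibitors at 2.97 and 3.76, the ZNF genes at 2.18 and 2.88, the respiratory chain subunits at 0.33 and 0.35, and the ribosomal proteins at 0.23 and 0.32. The mitotic genes, whose 3'UTRs are T-rich with a median of 36.8% T, had 1.1 after this division in place of 1.32 in AsPC-1, and 0.84 in place of 1.07 in T3M-4.

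**Figure D3:**
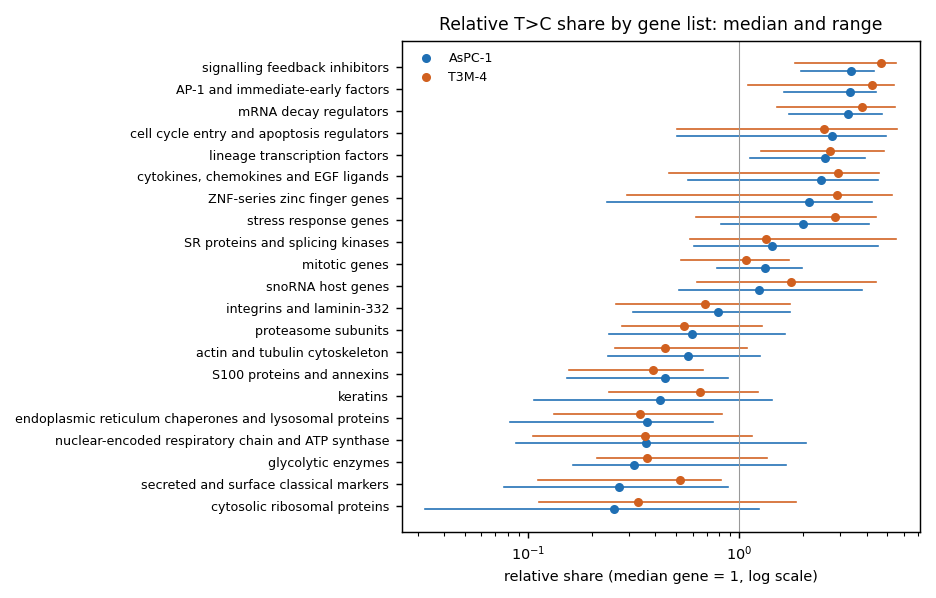
Relative T>C share (x axis, median gene = 1, log scale) of each gene list in AsPC-1 and T3M-4, with a dot at the median of the list and a line over the range of its members. AP-1 factors, feedback inhibitors and decay regulators lie highest with medians above 3 in both lines, and the cytosolic ribosomal proteins lowest, with medians of 0.25 in AsPC-1 and 0.33 in T3M-4.

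Fast and slow genes differed in their 3'UTRs. The median 3'UTR of the lowest decile of relative share in AsPC-1 had 362 bases and 24.2% T, and that of the highest 1893 bases and 32.9% T. In T3M-4 these values were 384 bases and 24.3% against 1895 bases and 32.3%. The letters TATTTAT, searched on the sense strand, were in 8.57% of the 3'UTRs of the lowest decile and 55.8% of the highest in AsPC-1, beside 35.6% of all, and in 8.18 and 54.1% in T3M-4, beside 36.0% of all. Long 3'UTRs hold more motifs of any kind. Among 3'UTRs of 1000 to 2000 bases alone, TATTTAT was in 11.9% of 109 genes of the lowest decile and 47.9% of 211 of the highest in AsPC-1, beside 33.3% of all of that length, and in 10.8% of 130 and 49.6% of 244 in T3M-4, beside 33.9% of all. The core is T-rich, so the T content that raises the chance of a converted read rises with it. Across genes the relative share had a Spearman correlation of 0.356 with T content in AsPC-1 and 0.310 in T3M-4, of 0.340 and 0.350 with 3'UTR length, and of -0.272 and -0.310 with the number of reads, all as descriptions over genes.

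NVP-2 gave a separate reading of turnover, from other libraries and from all reads instead of converted reads. When transcription is blocked, the level of a short-lived mRNA falls and that of a long-lived one rises in its place in the library, since the counts are relative and no spike-in was used. In AsPC-1 931 of 14237 genes tested fell after NVP-2 against NEG and 36 rose (edgeR quasi-likelihood test, adjusted p under 0.05), which is 6.54 and 0.253%. In T3M-4 799 of 15670 fell and 49 rose, 5.1 and 0.313%. In the highest decile by the DMSO share 395 of 869 genes fell in AsPC-1 (45.5%) and 490 of 977 in T3M-4 (50.2%), and in the 2 lowest deciles 0 genes fell in either line by edgeR, with 3 lower at an unadjusted p under 0.05 in AsPC-1 and 2 in T3M-4, and 0 and 1 by DESeq2. The median log2 fold was 0.40 in the lowest decile and -0.97 in the highest in AsPC-1, and 0.36 and -0.97 in T3M-4, and Spearman's correlation across genes of the relative share and the NVP-2 log2 fold was -0.653 and -0.680. CLK1 fell by 3.73 on the log2 scale in AsPC-1 and by 3.33 in T3M-4 (edgeR adjusted p = 0.000253 and 0.000215), MYC by 3.41 and 3.81 (edgeR adjusted p = 0.000578 and 0.00032), and FBXO5 by 3.46 and 3.35 (edgeR adjusted p = 0.00108 and 0.000183). The 12 fast genes named above fell in both lines, but they were listed after genes that kept their share in these same NVP-2 libraries had been left out, so their fall is no separate evidence, whereas the deciles hold all genes at the read minimum. EPHA2 had log2 folds of -1.13 and -0.69 that did not pass (edgeR adjusted p = 0.151 and 0.37), and LIF fell in T3M-4, while in AsPC-1, where it was among the first 8 by share, its change did not pass (log2 fold -0.42, edgeR adjusted p = 0.59).

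By list, 10 of 15 AP-1 and immediate-early genes fell in AsPC-1 and 12 of 15 in T3M-4, 14 of 19 and 16 of 20 feedback inhibitors, and 86 of 202 and 78 of 210 ZNF genes. Of the ribosomal proteins, respiratory chain subunits, proteasome subunits and glycolytic enzymes none fell in either line in this test or by DESeq2, with 2 lower at an unadjusted p under 0.05 in each line, and their median log2 folds were between 0.20 and 0.40. KLF5 fell in both lines, with a log2 fold of -1.86 in AsPC-1 and -0.69 in T3M-4 (edgeR adjusted p = 0.000433 and 0.0418). The limit given above on the source of KLF5 reads holds here too. In T3M-4 the NVP-2 and NEG libraries of the same experiment came from the same batch and deviated together. Their correlations were 0.264 to 0.508 with matching replicate numbers and 0.223 to 0.404 without. With a block for the full replicate number 2112 genes passed, 1423 of them lower. With the experiment number alone as the block 2444 passed, 1561 of them lower. The counts by decile and by list, with those of 0, came from fits without a block. Without NEG replicate 1.2 519 genes passed in T3M-4, and without NEG replicate 3.2 598 in AsPC-1.

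**Figure D4:**
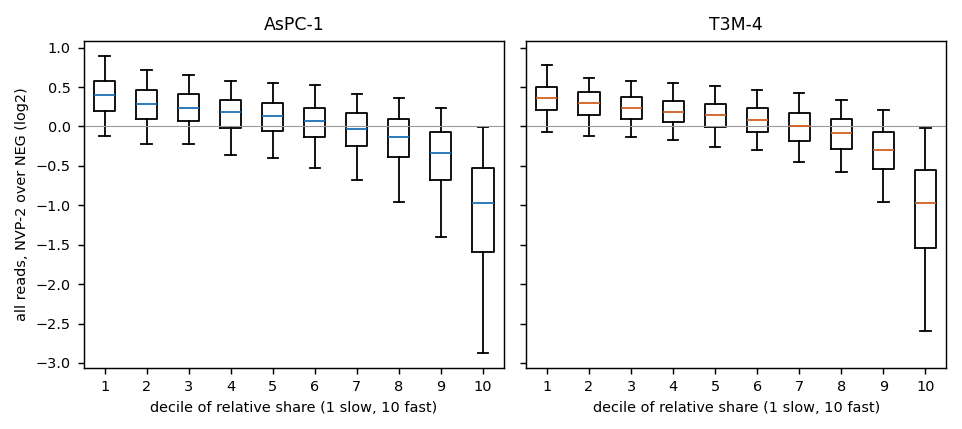
Log2 fold of all reads after NVP-2 over NEG (y axis) for the genes in each decile of relative T>C share in DMSO (x axis, 1 slowest to 10 fastest), in AsPC-1 and T3M-4. Boxes span the quartiles with a line at the median, whiskers run from the 5th to the 95th percentile, and genes beyond them are not drawn. The AsPC-1 medians fall with rising decile, 0.40 at decile 1 and -0.97 at decile 10, and those of T3M-4 likewise, 0.36 and -0.97, with the fall concentrated in the last deciles.

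The lines resembled each other closely. Over the 8106 genes at the minimum in both, Spearman's correlation of the mean relative shares was 0.923, and between single libraries of the lines 0.829 to 0.916, where libraries of the same line had given 0.893 to 0.956. The highest deciles shared 556 genes, which is 64.0% of the 869 of AsPC-1 and 56.9% of the 977 of T3M-4, and the lowest deciles shared 628, or 72.4 and 64.3%. Genes in the highest decile of one line and below the median gene of the other numbered 7 for AsPC-1 and 2 for T3M-4. The question of which genes differ in turnover between the lines was put to the 8105 of these genes with reads in every library and at least 1 converted read, in an edgeR quasi-likelihood model of converted reads with the gene's own reads and the library median as the offset. The relative share was higher in T3M-4 for 817 genes (10.1% of those tested) and higher in AsPC-1 for 717 (8.85%) at an adjusted p under 0.05. Most of these differences were small, since 91.3% were under 2-fold, and the median absolute log2 fold was 0.56 among the called genes and 0.24 among all. At 2-fold or more 73 genes were higher in T3M-4 (0.901%) and 60 in AsPC-1 (0.74%). The libraries of the lines did not overlap in 1576 of the genes tested (19.4%), and in 1251 of the 1534 called.

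Several facts about the libraries bear on these counts. With the libraries of batch 1 alone (5 AsPC-1 and 2 T3M-4) 609 genes were called, and with experiment 1 alone 190, and the T3M-4 libraries of batch 2 cannot be set against AsPC-1 libraries of that batch. Leaving out T3M-4 replicate 2.1 or 2.2 gave 994 and 955 calls. Scaling by the share over all reads in place of the library median shifted the median of all genes by -0.11 on the log2 scale and turned the split to 468 higher in T3M-4 and 1160 higher in AsPC-1, so the balance of directions rests on the choice of scale. At 2-fold or more that scale gave 46 genes higher in T3M-4 and 96 higher in AsPC-1, where the library median had given 73 and 60. The NEG libraries, which were not used to find these genes, gave the same direction for 1517 of the 1534 called genes and a call in that direction for 1181. For the genes at 2-fold or more, these were 131 and 113 of 133. The T3M-4 NEG libraries carry the same experiment and batch labels as the T3M-4 DMSO libraries. The AsPC-1 NEG libraries of experiments 1 and 2 likewise share theirs with the AsPC-1 DMSO libraries. A difference tied to experiment or batch could recur in them, so this agreement cannot tell such a difference from one in turnover.

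**Figure D5:**
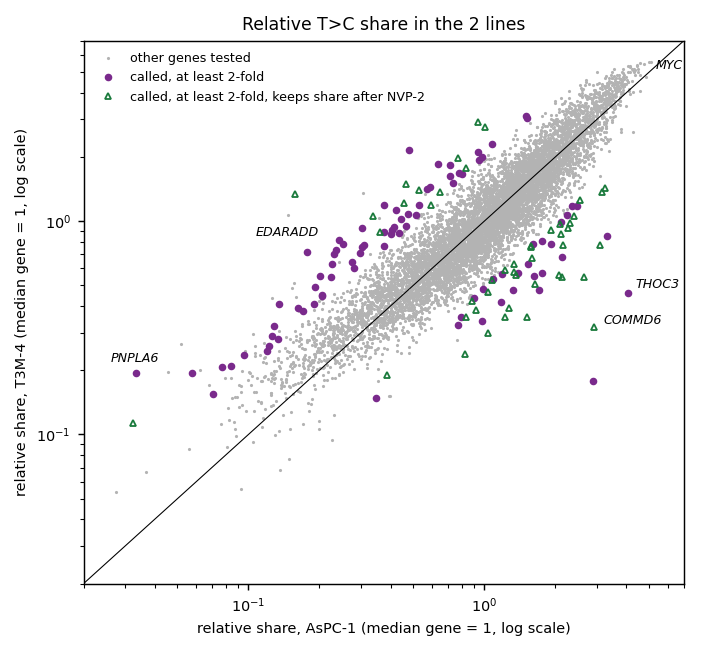
Mean relative T>C share of each gene in AsPC-1 (x axis, 5 libraries) and T3M-4 (y axis, 4 libraries), median gene = 1 on log scales, with the diagonal of equal shares. Genes called at 2-fold or more are drawn as filled circles, or as triangles where the gene keeps its share after NVP-2 in a line, and COMMD6 and THOC3 lie far below the diagonal. CTSF, at 0 in AsPC-1, is not drawn.

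Of the genes named by rule as faster in AsPC-1, RCC2, a regulator of mitosis that binds chromatin, had 19.5 to 27.1% in AsPC-1 and 6.66 to 12.7% in T3M-4 (log2 fold -1.54, SE 0.115, edgeR adjusted p = 8.48e-06). SLC3A2, the heavy chain of amino acid transporters, had 21.3, 22.0, 23.4, 22.3 and 19.5% in AsPC-1 and 10.1, 11.6, 9.29 and 9.46% in T3M-4 (log2 fold -1.29, SE 0.103, edgeR adjusted p = 1.41e-05). HNRNPH1, an RNA-binding protein of splicing, had 24.5 to 28.9% and 9.11 to 17.7% (log2 fold -1.28, SE 0.125, edgeR adjusted p = 7.82e-05). These 3 genes were called under each of the 26 alternatives. The other genes named by rule in this direction were PRPF40B, a splicing factor, CENPI, a kinetochore protein, RETSAT, a retinol saturase, TXNRD2, the mitochondrial thioredoxin reductase, NID1, a basement membrane protein, and the pseudogene PFDN1P1, with log2 folds of -1.98 to -1.16. PFDN1P1 varied within AsPC-1, at 65.9, 68.8 and 75.8% in experiment 1 and 16.6 and 18.5% in experiment 2. As a copy of PFDN1 it may share reads with that gene.

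In the other direction TIMM10, a chaperone of mitochondrial protein import, had 3.81 to 4.73% in AsPC-1 and 13.3 to 17.3% in T3M-4 (log2 fold 1.61, SE 0.139, edgeR adjusted p = 2.82e-05) and was called under each of the 26 alternatives. EDARADD, the adaptor of the ectodysplasin receptor, had 3.33, 4.97, 2.32, 3.51 and 3.11% in AsPC-1 and 18.6, 6.66, 13 and 13.8% in T3M-4 (log2 fold 1.76, SE 0.290, edgeR adjusted p = 0.00231). CLEC2D, a C-type lectin ligand of a natural killer cell receptor, had 2.85 to 4.66% and 7.34 to 22.9% (log2 fold 1.63, SE 0.281, edgeR adjusted p = 0.00296). BSCL2 (seipin, a lipid droplet protein) and HNRNPUL2-BSCL2, the readthrough gene that shares its 3' end, gave log2 folds of 1.60 and 1.61 and count as 1 observation. The remaining named genes were VWA1, an extracellular matrix protein, PLTP, the phospholipid transfer protein, MAP3K6, a stress kinase, TMEM205 and F12 (coagulation factor XII), with log2 folds of 1.43 to 1.61. By the mean of each line, all of these were below the median gene in both lines. Single T3M-4 libraries came near or above it, with CLEC2D at up to 22.9% where the highest library median was 19.1%. PLTP turned to -0.26 with the NEG libraries, MAP3K6 lost its call under 15 alternatives, and the reads of TMEM205 came in multiples of 9, so its counting error is larger than its number of reads implies.

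Among the genes called at 2-fold or more, 13 of those higher in T3M-4 and 34 of those higher in AsPC-1 kept their share after NVP-2 in at least 1 of the lines, that is, their mean share after NVP-2 was at least 0.5 times that in DMSO. Over all genes at the minimum this held for 106 in AsPC-1 and 375 in T3M-4. COMMD6, of the COMMD family of trafficking and NF-kappa-B regulators, had 42.4, 38.7, 43.5, 39.2 and 42.7% in AsPC-1 and 6.87, 7.91, 2.97 and 3.71% in T3M-4 (log2 fold -3.20, SE 0.194, edgeR adjusted p = 3.47e-06), and after NVP-2 38.0 and 0.689%. The change in all reads of COMMD6 after NVP-2 did not pass in AsPC-1 (log2 fold 0.27, edgeR adjusted p = 0.471). TAF6, a subunit of TFIID, and LAPTM4B, a lysosomal membrane protein, behaved like COMMD6 with log2 folds of -2.26 and -2.09, and CINP, a cell cycle checkpoint protein, was the reverse case with 1.68. ATP5F1C and NDUFA4 of the respiratory chain, PSMA4 of the proteasome and PFKP of glycolysis had the same pattern in AsPC-1, at 29.2, 11.9, 23.4 and 22.3% in DMSO and 24.3, 12.9, 17.3 and 20.7% after NVP-2, and log2 folds between the lines of -1.89, -1.24, -1.70 and -1.04. For these genes the share stayed high when transcription was inhibited. A T>C read is any read with such a mismatch left after the authors' variant filter, whatever made it, so the shares and folds of these genes cannot be read as turnover, and the cause was not tested. Without all genes of this kind 1303 genes were called between the lines, 664 higher in T3M-4 and 639 higher in AsPC-1.

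By list, 32 of 74 ribosomal protein genes tested had a higher relative share in T3M-4 and 3 in AsPC-1, beside 10.1 and 8.85% of all genes, and their median log2 fold was 0.36. RPS29 had 24.6, 2.60, 2.55 and 17.1% in the T3M-4 libraries, so its log2 fold of 2.01 rests on 2 of them. Of the 127 ZNF genes 24 were higher in T3M-4 and 4 in AsPC-1, with a median of 0.27. Genes at both ends of the share scale also leaned to T3M-4, as given below, and the lists were not compared with genes of like share. Of 18 mitotic genes 0 were higher in T3M-4 by edgeR, also at an unadjusted p under 0.05 and by DESeq2, and 9 in AsPC-1, with a median of -0.34, among them AURKB, TOP2A, CDC20, AURKA and PLK1 at -0.67 to -0.53. Scaled by the share over all reads these counts were 23 and 3, 13 and 5, and 0 and 11, and in batch 1 alone 9 and 2, 1 and 0, and 0 and 3. The integrins and laminin-332 chains went both ways, with ITGB1, ITGA3 and ITGB5 among those higher in AsPC-1 (-0.73 to -0.57) and PLEC and LAMB3 higher in T3M-4 (0.43 and 0.75). Of the respiratory chain subunits 14 of 78 were higher in T3M-4 and 8 in AsPC-1. Of the AP-1 group, 2 of 14 were higher in T3M-4 and 1, SRF, in AsPC-1 (log2 fold -0.67, edgeR adjusted p = 0.00866).

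Across the scale, the differences in favour of T3M-4 stood at both ends. In the lowest decile of mean relative share 125 of 810 genes were higher in T3M-4 and 15 in AsPC-1, and in the highest decile 136 and 23 of 811. In decile 4, between these, 61 and 103 of 811 genes were called. The median log2 fold was 0.26 in the lowest decile, -0.08 in decile 4 and 0.17 in the highest. The ceiling of the scale differed between the lines as given above, and after each share was corrected for it the medians of the lowest and the highest decile were 0.30 and 0.18, and 1310 of the 1534 called genes were called in the same direction.

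The order of genes hardly depended on the kind of control. Spearman's correlation across genes of the mean relative share in DMSO and in NEG libraries was 0.982 in AsPC-1 and 0.979 in T3M-4, and with DMSO for 12 h in AsPC-1 it was 0.969, as descriptions over the same genes.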

How the data were processed

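SLAM-seq libraries (3' mRNA sequencing of alkylated, 4sU-labelled RNA, single-end reads) were made by the authors, who mapped the reads with slamdunk at default settings to GENCODE v44 3'UTR exons on hg38, with T-to-C variants identified and filtered; its version is not given in the sources used here. The authors deposited whole-number counts per gene, of all reads and of T>C reads, with no normalization or spike-in. Counts of 820 of the 8688 AsPC-1 genes and 1354 of the 9768 T3M-4 genes shared a common divisor above 1 over the libraries.

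From the counts, the T>C share in percent, the relative share and the ranks were computed. The lines were compared in edgeR 4.0.16 (quasi-likelihood, R 4.3.3) on T>C counts with the offset log(all reads × library median share), in all 9 libraries and without other covariates, with Benjamini-Hochberg adjustment. NVP-2 and NEG libraries were compared in edgeR on all reads within a line, in AsPC-1 with the 4 NEG libraries of the batch that holds its NVP-2 libraries. Library-level values were compared by exact permutation, two-sided. Alternatives used DESeq2 1.42.0 and limma 3.58.1. The replicate numbers of the lines did not pair them (correlations of deviations 0.0329 to 0.0636). In T3M-4 the NVP-2 and NEG libraries of the same experiment shared a batch and deviated together, whether or not their replicate numbers matched. The labels do not say that replicates came from separate cultures, so p-values measure the spread between these libraries. Intervals and limits of counts of 0 (3 counts) cover counting error only.

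The genes and lists were chosen with earlier results of these data known. Genes were named by rule. The first 12 of both lines were taken by the lower of the mean relative shares in the lines, and the last 12 by the higher. The other rules took the first and last 8 of each line and the highest and lowest members of each list. They also took the 10 largest differences each way with an adjusted p under 0.05, no overlap between libraries and no kept share after NVP-2. The 3 largest among genes that kept it were added. KLF5, MALAT1, the genes just around the read minimum and further called members of lists were named after their values were seen. Some genes that these rules name, and 1 sequence motif, are not reported here. The test was run on simulated counts with known folds before use.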

Additional observations from a re-analysis of the deposited data

Results flagged for a closer look

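Dixon's 95% criterion was applied to 318 groups of 4 or 5 libraries, each for a named gene or for a library-level value. In 19 of them (5.97%), all for named genes, the highest or lowest library stood apart from the rest, where chance gives about 1 in 20. In T3M-4 the highest library stood apart for CENPI (16% in replicate 1.1), ITGA3 (21.0% in 1.1), LAMA3 (25.9% in 1.1), RPL38 (27.7% in 1.1), GADD45B (74.0% in 1.2), SERPING1 (3.36% in 1.2) and CLU (2.85% in 2.1). The lowest T3M-4 library stood apart for ECT2 (18.1% in 2.2), EPB41L4A-AS1 (26.1% in 2.1) and ZNF92 (79.0% in 1.2). In AsPC-1 the highest library stood apart for TRAPPC6A (3.37% in 1.1), KIF23 (32.6% in 1.2), NID1 (17.1% in 1.2), S100A4 (3.56% in 1.2), TUBB4B (13.6% in 1.2), DPEP1 (1.41% in 1.3) and MPND (1.45% in 1.3). The lowest AsPC-1 library stood apart for GAPDH (1.99% in 2.2) and TGIF1 (53.6% in 2.2). The T3M-4 share of CENPI without replicate 1.1 was 3.63 to 4.49%.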

How the results depend on the processing

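The higher share over all reads in T3M-4 kept its direction under the alternatives run, but without any 1 library the difference was 1.78 to 2.78 points and no longer passed, with experiment 1 alone 3.22 (adjusted p = 0.2), with batch 1 alone 3.66 (adjusted p = 0.0952) and with a replicate block 2.47 (adjusted p = 0.188), where fewer libraries limit the p that can be reached. The 90th over 10th percentile, which passed in no fit, turned to -0.161 at 2000 reads, -0.234 over genes at the minimum in both lines, between -0.231 and 0.406 without 1 library, -0.693 with experiment 1 alone and -0.743 with batch 1 alone. At 2000 reads the shared highest and lowest deciles held 315 and 374 genes. The 1534 genes called between the lines became 955 to 1429 without 1 library, 190 with experiment 1 alone, 609 with batch 1 alone and, chosen after seeing the data, 2720 with NEG libraries, where PLTP turned to -0.26. The 133 genes at 2-fold or more became 364 with the interaction model, 290 with no read minimum, 235 with experiment 2 alone, 223 after correction for the ceiling, 85 without genes that keep their share, 83 at 2000 reads and 63 with experiment 1 alone. The same-numbered libraries of the lines were not paired, and the replicate block gave 1119 calls by full number and 1766 by experiment. For NVP-2 in AsPC-1 the 967 calls became 1540 with DESeq2, 2928 with all NEG libraries and 598 to 885 without 1 library, and in T3M-4 the 848 became 1583 with DESeq2, 2112 and 2444 with the replicate block and 519 to 838 without 1 library. No paired analysis was possible for NVP-2 in AsPC-1 because its libraries and the NEG libraries share no number. Of the 55 called genes named here 23 were called with experiment 1 alone, 32 with batch 1 alone, 46 with NEG libraries and 55 with DESeq2. Over all named genes 3534 values kept the call or its absence, 203 lost the call and 105 gained it. Among the called genes 1 value turned in direction. Direction was not counted for genes without a call. The cause of these changes was not tested.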

Other observations

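Mitochondrial transcripts, made by a polymerase other than RNA polymerase II, are listed in the same tables. Of 15 such genes at the minimum, the ribosomal RNAs MT-RNR1 and MT-RNR2 had shares of 4.76 and 5.22% in AsPC-1 and 6.76 and 5.36% in T3M-4, below the median gene. After NVP-2 these were 4.18 and 4.08% in AsPC-1 and 4.77 and 3.58% in T3M-4, where the median gene had fallen to under 3%. The share after NVP-2 was at least 0.5 times that in DMSO for 14 of the 15 in AsPC-1 and for 15 in T3M-4, with median ratios of 0.641 and 0.806. The exception was the transfer RNA gene MT-TV, with 11.2% in DMSO and 1.53% after NVP-2 in AsPC-1, against 4.22 and 3.59% in T3M-4. In the same order MT-TG had 27.9 and 14.1% in AsPC-1 and 24.9 and 25.7% in T3M-4. MT-TI had 32.7 and 51.4% in DMSO and 24.0 and 38.6% after NVP-2, and MT-TL2 28.6 and 47.0% in DMSO and 22.4 and 39.0% after NVP-2. The libraries select polyadenylated 3' ends, so these values are for reads that pass this selection. Which mitochondrial transcript the reads counted on a transfer RNA gene came from was not tested.

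The nuclear long noncoding RNAs MALAT1 and NEAT1 come from neighbouring genes on chromosome 11 and had unlike shares. MALAT1 had 5.80% ± 0.483 in AsPC-1 and 14.7% ± 2.28 in T3M-4 (SD, n = 5 and 4), or 0.412 and 0.938 times the median gene (log2 fold 1.19, edgeR adjusted p = 0.00198). NEAT1, the scaffold of paraspeckles, had 31.4% ± 3.64 and 53.4% ± 1.53 (SD, n = 5 and 4), or 2.21 and 3.36 times the median gene (log2 fold 0.60, edgeR adjusted p = 0.0108).

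Genes in the highest decile of one line and below the median gene of the other included COMMD6, CSK, DROSHA, PFDN1P1, TAF6 and THOC3, fast in AsPC-1, and GTF2A2 and TMEM63B, fast in T3M-4. DROSHA, the nuclease that starts microRNA processing, had 43.9% ± 5.19 in AsPC-1 and 12.8% ± 4.18 in T3M-4 (SD, n = 5 and 4), and 38.6 and 1.84% after NVP-2. GTF2A2, a subunit of TFIIA, had 14.3% ± 2.34 and 44.3% ± 2.04 (SD, n = 5 and 4), and 0.792 and 35.4% after NVP-2. THOC3, of the mRNA export complex THO, had 56.7% ± 26.7 in AsPC-1 (SD, n = 5), the widest spread among these genes apart from PFDN1P1, and 7.79% ± 4.06 in T3M-4 (SD, n = 4). Of these, COMMD6, CSK, DROSHA, TAF6, GTF2A2 and TMEM63B kept their share after NVP-2 in the line where it was high. THOC3 was still at 59.6% in a single AsPC-1 library after NVP-2, replicate 2.1, and at 70.9% in AsPC-1 DMSO replicate 2.1. All genes named in this paragraph were chosen after their values were seen.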
